A study of Mus musculus with 6 samples.

Results

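The genes described here encode kinesins, tubulins, the microtubule-severing katanins, cytoplasmic dynein, its activator dynactin, and the tubulin-tyrosine ligase-like (TTLL) enzymes. They were chosen by the form of their symbol among RefSeq mRNA genes (Kif, Kifc, Tuba, Tubb, Tubg, Katn, Dync, Dynl, Dctn and Ttll), a rule that uses no measured value, although the set was proposed with earlier results of these data known. Among 14455 RefSeq mRNA genes measured, 93 were members, and 1 of them, Kif1bp, encodes a kinesin-binding protein and not a kinesin. RNA of mature sperm (4 samples) and of testes (2 samples) was measured by strand-specific sequencing after removal of ribosomal RNA. Both tissues came from C57BL/6 mice (C57BL/6J in the study's methods), aged 3 to 5 months per the labels, while the methods give a younger range in weeks. Sperm from the vas deferens and caudal epididymis were pooled over mice and freed of somatic cells by lysis before extraction, whereas testes were whole tissue that also holds spermatogonia, spermatocytes, spermatids and somatic cells. The study treated the samples of a group as biological replicates. The testes came from the mice that gave the sperm pools, so the 2 groups share animals. Which mice entered which sample is not given in the sources used here. The p-values of the reported edgeR fit rest on a spread between these samples that was estimated over many genes together. They do not measure the spread of each gene on its own. Since sperm replicate 1 correlated too weakly with the others for the study to keep it, sperm replicates 2, 3 and 4 were compared with testes replicates 1 and 2, and replicate 1 is given beside them.

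Microtubules are polymers of alpha- and beta-tubulin. Kinesins are motors that mostly walk to their growing ends, cytoplasmic dynein walks the other way, and dynactin links dynein to cargo. In elongating spermatids microtubules form the manchette, a transient skirt around the nucleus along which cargo moves to the growing tail, and katanins sever microtubules when this structure is shaped and taken down. The tail axoneme is itself made of tubulin whose ends carry added glutamates or glycines, set by TTLL enzymes. Transcription has ceased in mature sperm, so their RNA is what earlier stages left behind or what was acquired later.

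The depth behind the values was low. RefSeq mRNA held 42390, 100027, 33511 and 54337 counts across sperm replicates 1 to 4, and 322625 and 314273 in the testes. Levels below are CPM, counts scaled to a RefSeq mRNA total of 1000000 in each sample. A floor of 3 counts therefore stood at 30.0 to 89.5 CPM in sperm replicates 2 to 4, at 70.8 in sperm replicate 1 and at 9.30 and 9.55 in the testes, and over the pool of sperm replicates 2 to 4 it stood at 15.97 CPM. These floors cover counting error only, because PCR duplicates of a molecule are counted too. Of cell type markers, the 6 spermatocyte genes in the tables had 0 counts in all 4 sperm samples, against 31 and 33 counts in the testes. The summed level of the 8 late spermatid genes ran from 1557 to 3000 CPM in sperm and was 3276 and 2935 in testes. Of the protamines of condensed sperm chromatin, Prm2 had 45, 148, 49 and 130 counts in sperm and was not called, whereas Prm1 had 6, 2, 0 and 2 against 123 and 116 in testes and was lower (log2 fold change -4.13, adjusted p = 0.0214, edgeR). Tnp1, a transition protein of spermatids, was lower too, with 0, 2, 0 and 0 counts against 98 and 86 (adjusted p = 0.0225). Akap4, a sperm tail scaffold, had 1 count in sperm replicate 3 and 0 in the other sperm samples, and Odf1 of the tail's outer dense fibres had 0 in all 4. Odf2 of the same fibres had 12, 78, 13 and 27 counts in sperm and 236 and 338 in testes. It was not called (log2 fold change -0.69, adjusted p = 0.445, edgeR). Prm2 and Odf2 held most of the sperm counts of the late spermatid genes. Among somatic markers, Star of Leydig cells held 0, 16, 40 and 6 counts in sperm replicates 1 to 4, and the 6 Leydig genes in the tables summed to 0 to 1194 CPM there against 580 and 541 in testes. The 4 leukocyte genes in the tables summed to 0 to 19.99 CPM in sperm and to 40.3 and 25.5 in testes. The 6 Sertoli cell genes summed to 0 to 39.99 in sperm and to 68.2 and 61.8 in testes. Those of the epididymal epithelium summed to 0 to 92.0 in sperm and to 3.10 and 57.3 in testes. These testes sums lie within or under the range of the floors of single sperm samples. Low sperm sums of these lists therefore do not show that such cells were absent. Epithelium genes summed to 73.6 to 269 in sperm against 99.2 and 140 in testes. The spermatogonial counts were nearly all of 1 gene, Gfra1, with 7, 2, 6 and 7 in sperm and 242 and 308 in testes, while Stra8 and Uchl1 were at 0 in sperm. The part of these cells in the values below was not tested, and in such bulk samples fewer cells of a type and less RNA per cell cannot be told apart.

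Promoters of 6 members are shown. Tuba1b, Tubb5 and Kifc5b were called higher in sperm, Kif7 and Kif3c were called lower with high counts in testes, and Kifc1 is the close copy of Kifc5b. Each window runs from 250 bases before to 50 bases after the transcription start and is taken from RefSeq on GRCm38.p6, read 5′ to 3′ on the strand of the gene. Capitals mark 3 motifs on either strand. The letters TGACG form an arm of the cAMP response element, CCAAT is the CCAAT box, and GGGCGG is the GC box.
Tuba1b, an alpha-tubulin, chr15:98934341-98934640, minus strand: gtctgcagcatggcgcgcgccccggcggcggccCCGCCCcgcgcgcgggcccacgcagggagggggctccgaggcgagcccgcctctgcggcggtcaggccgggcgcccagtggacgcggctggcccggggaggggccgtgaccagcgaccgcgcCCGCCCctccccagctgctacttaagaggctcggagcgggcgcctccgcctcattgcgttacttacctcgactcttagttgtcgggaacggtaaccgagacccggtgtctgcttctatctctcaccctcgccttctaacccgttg
Tubb5, a beta-tubulin, chr17:35838252-35838551, minus strand: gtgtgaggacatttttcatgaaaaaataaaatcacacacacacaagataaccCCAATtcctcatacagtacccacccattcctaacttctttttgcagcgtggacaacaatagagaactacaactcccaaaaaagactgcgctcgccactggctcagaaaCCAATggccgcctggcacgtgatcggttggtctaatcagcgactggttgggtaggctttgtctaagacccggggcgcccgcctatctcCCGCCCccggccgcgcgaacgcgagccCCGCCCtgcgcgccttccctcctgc
Kifc5b, a kinesin of the C-terminal motor type, chr17:26916841-26917140, plus strand: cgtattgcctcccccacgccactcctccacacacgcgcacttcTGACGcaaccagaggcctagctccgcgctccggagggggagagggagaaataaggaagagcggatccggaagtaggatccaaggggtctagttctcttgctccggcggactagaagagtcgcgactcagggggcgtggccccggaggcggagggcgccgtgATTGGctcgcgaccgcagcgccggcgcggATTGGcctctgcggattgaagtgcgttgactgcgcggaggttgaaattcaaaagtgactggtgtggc
Kifc1, its close copy, chr17:33890584-33890883, minus strand: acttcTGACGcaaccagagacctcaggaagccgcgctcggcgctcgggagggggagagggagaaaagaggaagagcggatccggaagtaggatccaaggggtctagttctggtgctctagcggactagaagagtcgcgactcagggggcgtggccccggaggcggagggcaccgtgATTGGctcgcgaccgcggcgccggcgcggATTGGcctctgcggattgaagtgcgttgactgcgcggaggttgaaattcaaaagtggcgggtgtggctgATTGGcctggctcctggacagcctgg
Kif7, a kinesin of the primary cilium, chr7:79715658-79715957, minus strand: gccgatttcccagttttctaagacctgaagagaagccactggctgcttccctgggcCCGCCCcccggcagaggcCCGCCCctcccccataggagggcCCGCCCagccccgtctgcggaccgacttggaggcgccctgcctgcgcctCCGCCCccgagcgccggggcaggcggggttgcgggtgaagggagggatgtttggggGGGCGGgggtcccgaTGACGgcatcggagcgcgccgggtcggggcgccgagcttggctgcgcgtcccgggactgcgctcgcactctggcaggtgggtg
Kif3c, a kinesin-2 motor subunit, chr12:3364882-3365181, plus strand: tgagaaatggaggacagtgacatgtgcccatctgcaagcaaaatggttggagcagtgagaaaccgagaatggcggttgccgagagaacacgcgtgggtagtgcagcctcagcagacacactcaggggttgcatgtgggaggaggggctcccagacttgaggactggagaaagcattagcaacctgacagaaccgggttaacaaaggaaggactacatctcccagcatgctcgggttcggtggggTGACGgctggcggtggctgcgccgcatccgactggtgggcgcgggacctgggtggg
The Kifc5b and Kifc1 windows shared 248 of 328 aligned columns (75.6%), whereas Tuba1b shared 49.4% with Tuba1a and 45.8% with Tuba1c. Kifc5b carried 2 CCAAT boxes, Kifc1 3, Tubb5 2 and Tuba1b none. The Kif7 window was the richest of the 6 in GC boxes (5) and in G and C (74.0%), and the Kif3c window held no GC box. Of 32851 windows of the annotation 35.7% held a GC box, 37.4% a CCAAT box and 20.8% a response element arm. Of 76 windows of 68 members, the shares were 60.5%, 46.1% and 36.8%. The full response element TGACGTCA, which overlaps 2 such arms, was found in 1.79% of all windows and in those of 5 members, namely Dctn3, Kif17, Kif18a, Kif5c and Tubb2a. Of these 5, Kif17 and Tubb2a were tested between sperm and testes and neither was called. Such matches are descriptions of letters only, and windows for the other members were not used here.

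Members took nearly the same share of RefSeq mRNA counts in both tissues. The share was 0.840%, 0.944%, 0.946% and 0.755% across sperm replicates 1 to 4, against 0.922% and 0.924% for the testes, a ratio of 0.955 between the means of the compared samples. Which members held these counts differed. Tuba1b, Kifc5b and Tubb5 together took 73.0%, 67.1%, 67.9% and 63.1% of the members' counts across sperm replicates 1 to 4, against 14.2% and 8.504% in testes. Kif3c, Dynlt1a (a dynein light chain of the Tctex type) and Kif7 took 2.53%, 3.71%, 7.26% and 4.14% in sperm and 38.0% and 43.0% in testes. These 6 genes were picked for this sum after their values were seen. Every sperm sample, replicate 1 included, lay far from both testes in both sums.

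**Figure D1:**
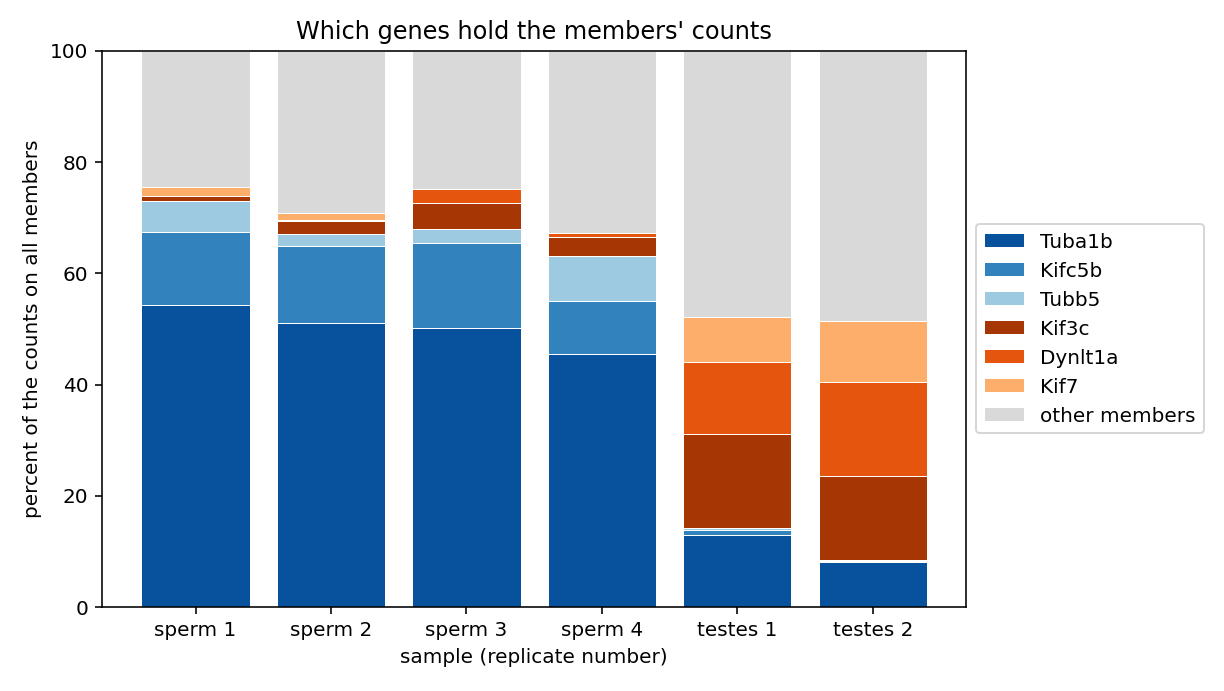
Percent of the counts on all 93 members (y axis) held by 6 genes and by all other members, in each of 4 sperm and 2 testes samples (x axis). The dark and pale blue segments (Tuba1b, Kifc5b, Tubb5) fill 63.1% to 73.0% of each sperm bar, and the orange ones (Kif3c, Dynlt1a, Kif7) fill 38.0% and 43.0% of the testes bars.

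Fewer members were seen in sperm. Counts above 0 were listed for 18, 49, 14 and 28 members across sperm replicates 1 to 4, against 82 and 78 in testes. The order among sperm samples followed their depth, with replicate 2 the deepest. At an equal depth of 33511 counts, the number expected was 22.8 ± 9.62 (SD, n = 3) in sperm and 44.2 ± 3.08 (n = 2) in testes. That ratio was 0.515, and the ratio for all RefSeq mRNA genes was 0.523. Of the 93 members 10 were above 0 in each of sperm replicates 2 to 4, 7 in all 4 sperm samples, and 37 in no sperm sample. Kif6, Kif26a and Tubg2 were listed in sperm and in neither testes sample. Kif6 and Kif26a had 2 and 1 counts in all, whereas Tubg2, a gamma-tubulin of the nucleating ring, had 11 and 2 counts in sperm replicates 2 and 4.

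The summed levels of the manchette, transport and tubulin groups ran in different directions. The 10 manchette kinesins and katanins summed to 1132, 1352, 1462 and 755 CPM across sperm replicates 1 to 4, against 229 and 171 in testes, which is 5.94 times higher in the compared sperm samples. The 15 tubulins summed to 5311, 5922, 4983 and 4470 in sperm and to 2281 and 1701 in testes, 2.57 times higher in sperm. All sperm samples lay above both testes in both groups. The 14 transport kinesins summed to 1014, 530, 537 and 633 in sperm and to 1915 and 1801 in testes, a ratio of 0.305. The 14 cytoplasmic dynein genes summed to 283, 530, 1074 and 239 in sperm and to 1995 and 2583 in testes, a ratio of 0.269. All sperm samples lay below both testes there. Without sperm replicate 3 the log2 ratio of the dynein sum went from -1.90 to -2.57. These sums are descriptions and have no test.

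A single gene set the direction of both groups that were higher in sperm. Kifc5b held 97.9%, 97.0%, 98.7% and 95.1% of the manchette sum in sperm replicates 1 to 4. Without it the log2 ratio of the group turned from 2.57 to -2.17. Tuba1b held 76.9% to 95.2% of the tubulin sum in sperm, and without it the log2 ratio turned from 1.36 to -0.37. In testes the manchette sum was led by Kifc5b in replicate 1 (39.7%) and by Kif17 in replicate 2 (31.6%), and the transport sum by Kif3c with 81.5% and 77.05%.

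**Figure D2:**
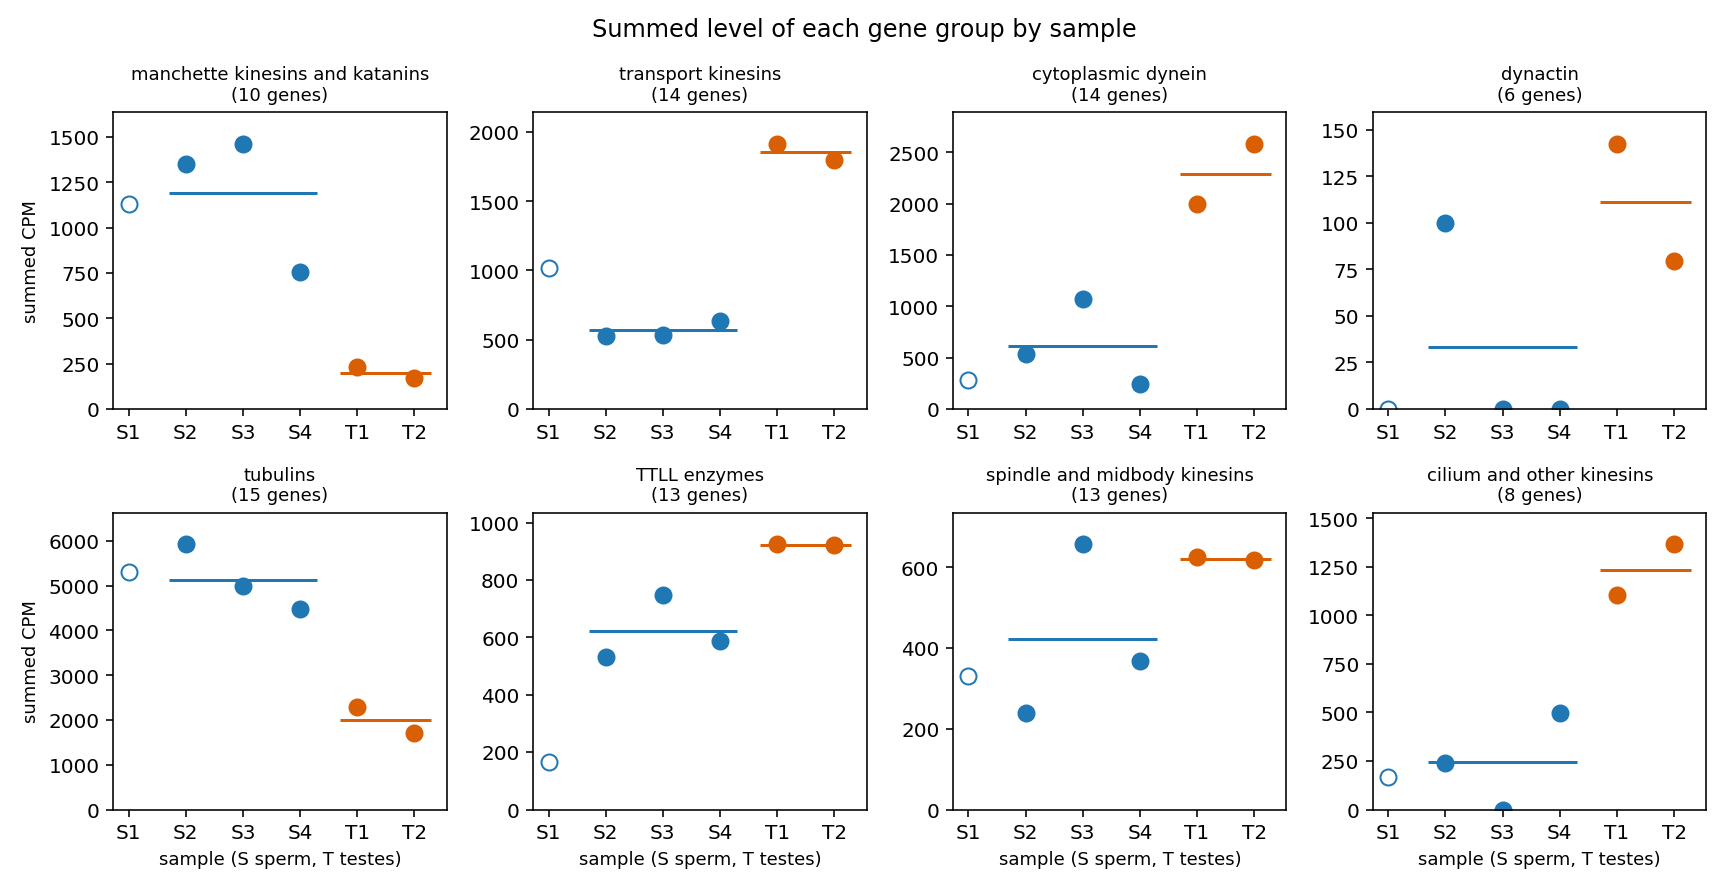
Summed CPM (y axis, from 0, a scale per panel) of 8 gene groups in sperm (S, blue, replicate 1 open) and testes (T, orange), with lines at the means of sperm replicates 2 to 4 and of the 2 testes samples. Manchette kinesins and katanins and tubulins are higher in all sperm samples than in testes. Transport kinesins, cytoplasmic dynein, the TTLL enzymes and the cilium group are lower in all sperm samples.

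Gene by gene, 40 members had a summed count of 20 or more over the 5 samples and were tested among 4628 genes by edgeR's quasi-likelihood test, with a call at a Benjamini-Hochberg adjusted p under 0.05 and a fold over 2. Of these, 10 were lower in sperm, or 25%, beside a background of 20.8% of all genes tested. Another 3 were higher, or 7.5%, beside a background of 6.70%. Both shares lie near their background. Without the filter on counts no member was called, with 4 higher and 12 lower at an unadjusted p under 0.05, and this fit is not named again at each gene. Leaving out sperm replicate 2 or testes replicate 2 left 1 lower call each, testes replicate 1 left 2 and sperm replicate 4 left 3. The median log2 fold change was -1.85 over the 40 members and -1.03 over all genes tested, or -1.46 and -0.98 with genes at 0 in sperm set to the smallest fold the floor allows. The 3 compared sperm samples all lay below both testes for 23 of the 40, beside 44.2% of all genes tested, and all above for 3, beside 10.9%. The remaining 53 members had at most 18 counts in the 5 samples and were not tested. At their level in testes, 42 members would fall under the floor of the sperm pool. In sperm replicate 1, which took no part, the 3 genes called higher lay above both testes. The 10 called lower lay below both, but 5 of them have a testes mean under the floor of that sample, where a count of 0 says nothing.

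**Figure D3:**
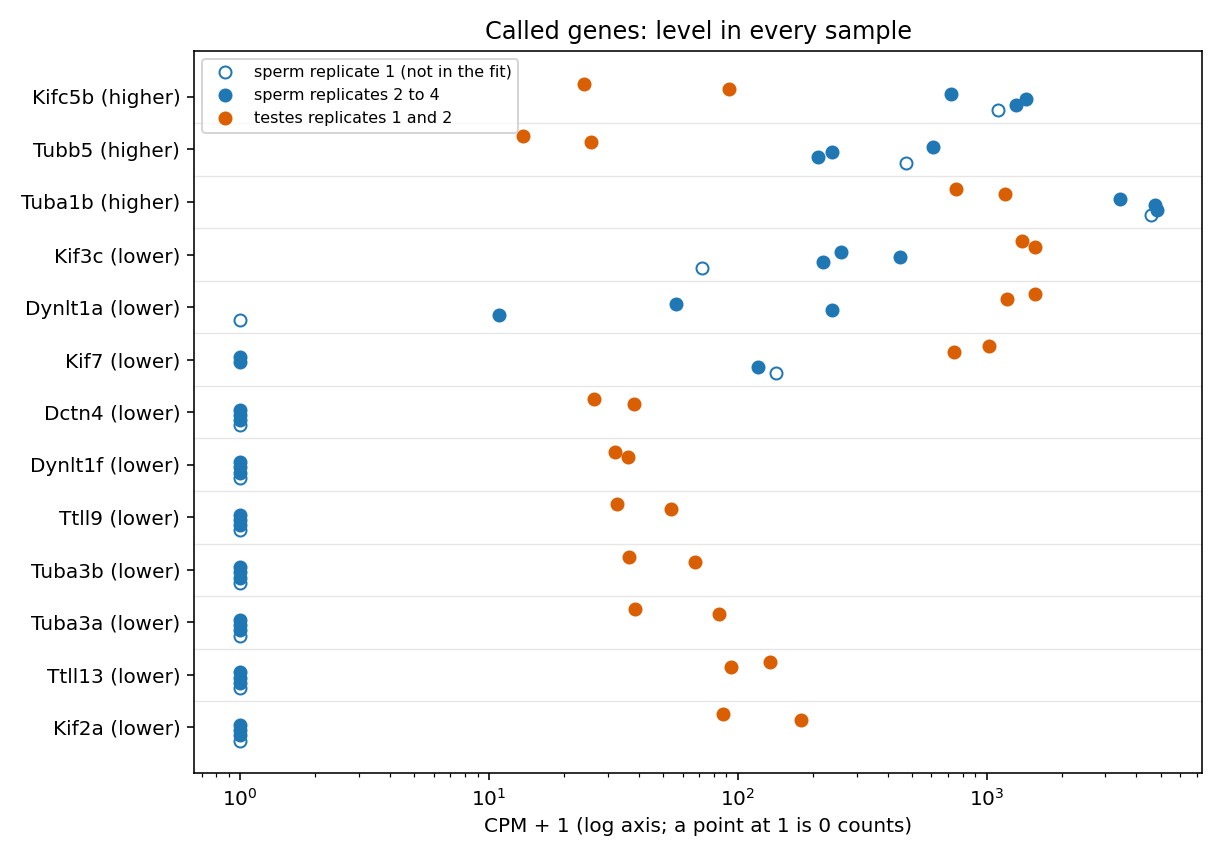
CPM plus 1 on a log axis (x) for the 13 called genes (y) in sperm replicate 1 (open), sperm replicates 2 to 4 (blue) and testes (orange). The 3 higher genes are separate from testes in every sperm sample, and 7 of the lower genes sit at 0 counts in all 4 sperm samples. Kif3c has counts in every sperm sample, and Dynlt1a and Kif7 have counts in some.

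Among the manchette kinesins and katanins, Kifc5b rose and no other member was called. Its level was 1109, 1312, 1443 and 718 CPM across sperm replicates 1 to 4, against 91.0 and 23.2 in testes. All sperm samples were above both testes, with a mean of 1158 ± 387 (SD, n = 3) against 57.1 ± 47.97 (n = 2). The edgeR log2 fold change was 4.34 (SE 0.80, adjusted p = 3.19e-06). With edgeR's filterByExpr as the count filter it was 4.34 too, at a larger adjusted p (SE 0.76, adjusted p = 0.00528, edgeR). The log2 fold change was 5.63 without testes replicate 1 and 3.67 without testes replicate 2. Kifc5b lies on chromosome 17 (26917091 to 26932579, GRCm38.p6), as does its close copy Kifc1, a minus-end motor of spindles and the spermatid manchette. Reads that the 2 copies share may have been divided between them. Kifc1 had 0, 0, 0.63 and 0 counts in sperm and 10.7 and 8.51 in testes, and was not called (log2 fold change -2.32, SE 1.37, adjusted p = 0.198). Kifc5b took 98.7% to 100% of the pair's counts in sperm and 73.4% and 46.1% in testes. Summed as 1 gene, the pair was also called higher in sperm (log2 fold change 3.72, SE 0.76, adjusted p = 4.62e-05, edgeR).

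The intraflagellar kinesins and the severing enzymes gave few counts. Kif17, a kinesin-2 motor, had 1, 2, 0 and 2 counts in sperm and 8 and 17 in testes and was not called (adjusted p = 0.618, edgeR). Kif3a and Kif3b, which form the kinesin-2 motor of the growing axoneme, had 0 counts in all sperm samples and 6 and 15 in the 2 testes together. Neither was tested, and their testes levels would give only 1.76 and 4.43 counts in the sperm pool. The testes mean of Kif3a, 9.38 CPM, lies under the floor of that pool. Katna1, the catalytic katanin subunit, had 1 count in sperm replicate 2 and 2 in testes replicate 2. At the testes level, 0.6 counts of Katna1 would fall in the sperm pool, so a difference was not detectable at this depth.

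Of the 15 tubulins 10 were tested, with 2 higher and 2 lower in sperm. Tuba1b, on chromosome 15 (98931429 to 98934390), was at 4556, 4819, 4745 and 3440 CPM across sperm replicates 1 to 4, against 1189 and 750 in testes. The sperm samples did not overlap the testes, and the log2 fold change was 2.16 (SE 0.46, adjusted p = 9.59e-05, edgeR). This call was not made with TMM factors (log2 fold change 1.64, SE 0.85, adjusted p = 0.148, edgeR). Nor was it made with DESeq2 (log2 fold change 1.15, SE 0.72, adjusted p = 0.214). Both settings lower the median fold change of all genes and had a larger SE for this gene. Why the call was lost was not tested. Per length, Tuba1b was the most abundant member in both tissues, with an FPKM of 275 ± 30.2 (SD, n = 3) in sperm and 73.8 ± 20.03 (n = 2) in testes. Next in sperm by FPKM came Kifc5b at 42.7 ± 11.6, followed by Tubb5 (13.6 ± 9.73), Tubb6 (13.2 ± 13.5) and Ttll11 (12.1 ± 2.95), whose ranges overlap. Tuba1b took 96.9% to 100% of the counts of the 3 near-identical Tuba1 genes in sperm and 82.0% and 76.4% in testes. Tuba1a had 8.86 counts in sperm replicate 2 alone, against 56.7 and 65.6 in testes. Summed, the 3 genes were also called higher in sperm (log2 fold change 1.85, SE 0.45, adjusted p = 9.27e-04, edgeR).

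Tubb5, a broadly used beta-tubulin on chromosome 17 (35833920 to 35838301), was at 472, 210, 239 and 607 CPM in sperm and at 24.8 and 12.7 in testes. Every sperm sample lay above both testes. The log2 fold change was 4.17 (SE 1.28, adjusted p = 0.0158, edgeR), on 20, 21, 8 and 33 counts in sperm and 8 and 4 in testes. Leaving out sperm replicate 2, sperm replicate 4 or either testes sample lost this call, as did TMM factors, and the log2 fold change was 3.53 without sperm replicate 4. Tubb4b, the beta-tubulin of cilia and tails, went the other way in its values, with 0, 89.98, 0 and 129 CPM in sperm against 387 and 347 in testes. It missed the threshold (log2 fold change -2.23, SE 1.10, adjusted p = 0.115), and was called with DESeq2 and without sperm replicate 3. Tubb6 overlapped between the tissues, at 165, 490, 0 and 202 CPM in sperm and 103 and 122 in testes.

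Tuba3a and Tuba3b, the testis-type alpha-tubulins on chromosome 6, were lower in sperm. Tuba3a had 26.7 and 11.8 counts in testes and Tuba3b 21.3 and 11.2, and both had 0 in all 4 sperm samples. Against the floor of the sperm pool they were at least 3.77-fold and 3.18-fold lower, with an adjusted p of 0.0240 each (edgeR). The 7 alpha-tubulin genes together were at 4674, 4992, 4745 and 3458 CPM in sperm and 1698 and 1175 in testes. The 6 beta-tubulin genes were at 637, 820, 239 and 975 in sperm and 583 and 523 in testes, so their ranges overlapped while those of the alpha-tubulins did not.

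Among the transport kinesins Kif3c fell in sperm. It stood at 70.8, 220, 448 and 258 CPM across sperm replicates 1 to 4, against 1562 and 1387 in testes, where it held the most counts of the group. No sperm sample reached the testes range, and the log2 fold change was -2.29 (SE 0.64, adjusted p = 0.00650, edgeR). The call was lost without sperm replicate 2 and without either testes sample. Kif3c lies on chromosome 12 (3365132 to 3406494) and shares 442 and 2612 bases with 2 long non-coding RNA genes. Of the other 13 genes only Kif21b and Kifc2 were tested, and neither was called. Kif21b, a motor that also slows microtubule growth, overlapped at 354, 120, 29.8 and 110 CPM in sperm against 68.2 and 35.0 in testes. Kifc2, a minus-end motor, stood at 260, 39.99, 0 and 147 against 229 and 286 (log2 fold change -1.99, SE 1.23, adjusted p = 0.221). The conventional kinesin heavy chains Kif5a, Kif5b and Kif5c had at most 4.09 counts in any sample.

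Of the 14 cytoplasmic dynein genes 6 were tested and 2, both light chains, were lower in sperm. Dynlt1a, on chromosome 17 (6306344 to 6317520), stood at 0, 9.997, 239 and 55.2 CPM in sperm and at 1203 and 1566 in testes. All sperm samples were below the testes, and the log2 fold change was -4.005 (SE 0.76, adjusted p = 7.41e-06, edgeR). It was not called without sperm replicate 2 (log2 fold change -3.31), and the log2 fold change was -5.65 without sperm replicate 3. Its RefSeq transcript is 4945 bases long and its gene shares 1971 bases with Tmem181a, so that reads of the overlap could have been counted for either. Dynlt1f, a near-identical copy, had 11.4 and 9.79 counts in testes and none in sperm, at least 2.08-fold lower (adjusted p = 0.0241). Summed with Dynlt1b, these light chains had a sperm to testes log2 fold change of -4.05 (SE 0.76) at an adjusted p of 4.68e-06 (edgeR).

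Dync1h1, the heavy chain that carries the motor, was at 165, 360, 448 and 166 CPM across sperm replicates 1 to 4, against 567 and 601 in testes. Sperm lay below testes without overlap, but the fold change missed the threshold (log2 -0.86, SE 0.78, adjusted p = 0.423, edgeR). A test of the difference between the heavy and the light chain was not run. Dynll1, a light chain of the LC8 type, had 13 of its 15.1 sperm counts in replicate 3, and its fold change was above 0 (log2 1.09, SE 1.47) and fell to -2.18 without that sample. Dynll2 had 78 of its 85 testes counts in replicate 2. The intermediate and light intermediate chains Dync1i2, Dync1li1 and Dync1li2 had 0 to 2 counts in each sperm sample and 1 to 10 in each testes sample.

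Dynactin was seen in 1 sperm sample only. Its 6 genes summed to 0, 99.97, 0 and 0 CPM across sperm replicates 1 to 4, against 143 and 79.5 in testes. Dctn4, a subunit of the pointed-end complex, had 12 and 8 counts in testes and none in sperm, and was called lower (at least 1.96-fold, adjusted p = 0.0242, edgeR). That bound lies under the fold of 2 needed for a call, so the call rests on the fitted log2 fold change of -5.40. By limma on log2(FPKM + 1) the log2 fold change was -0.98, and Dctn4 was not called. Dctn5, of the same complex, had 1 count in sperm and 22 and 4 in testes and was not called (adjusted p = 0.119). Dctn1, the large p150 subunit, had 5 counts in sperm replicate 2 and 2 and 3 in testes. Dctn2 had 4 counts in sperm replicate 2 and 8 and 5 in testes, and Dctn3 had 0 in sperm and 1 and 5 in testes, and neither was tested.

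Of the 13 TTLL enzymes 6 were tested and 2 were lower in sperm. Ttll13, a polyglutamylase on chromosome 7 (80246353 to 80260821), had 30 and 42 testes counts but none in sperm, at least 7.10-fold lower (adjusted p = 0.0240, edgeR). Ttll9, an enzyme needed for sperm tail function, had 17 and 10 counts in testes and 0 in sperm, at least 2.65-fold lower (adjusted p = 0.0240). Ttll11, a polyglutamylase, was by contrast the leading member of the group in both testes and in sperm replicates 2 and 4. It stood at 0, 350, 358 and 460 CPM in sperm and at 443 and 560 in testes, and the log2 fold change was -0.36 (SE 0.78, adjusted p = 0.759, edgeR). Its ranges in the compared samples overlapped, and a difference from Ttll13 was not tested. Ttll3, a glycylase, had counts in sperm replicates 2 and 3 (7.06 and 13) and in testes replicate 1 (20) and was at 0 elsewhere. Ttll5 (adjusted p = 0.229) and Ttll2 (adjusted p = 0.177) had 2 sperm counts each and 32 and 61 in testes. Ttll1, the catalytic subunit of a tubulin polyglutamylase complex, had 2 counts in testes replicate 1 and none elsewhere.

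**Figure D4:**
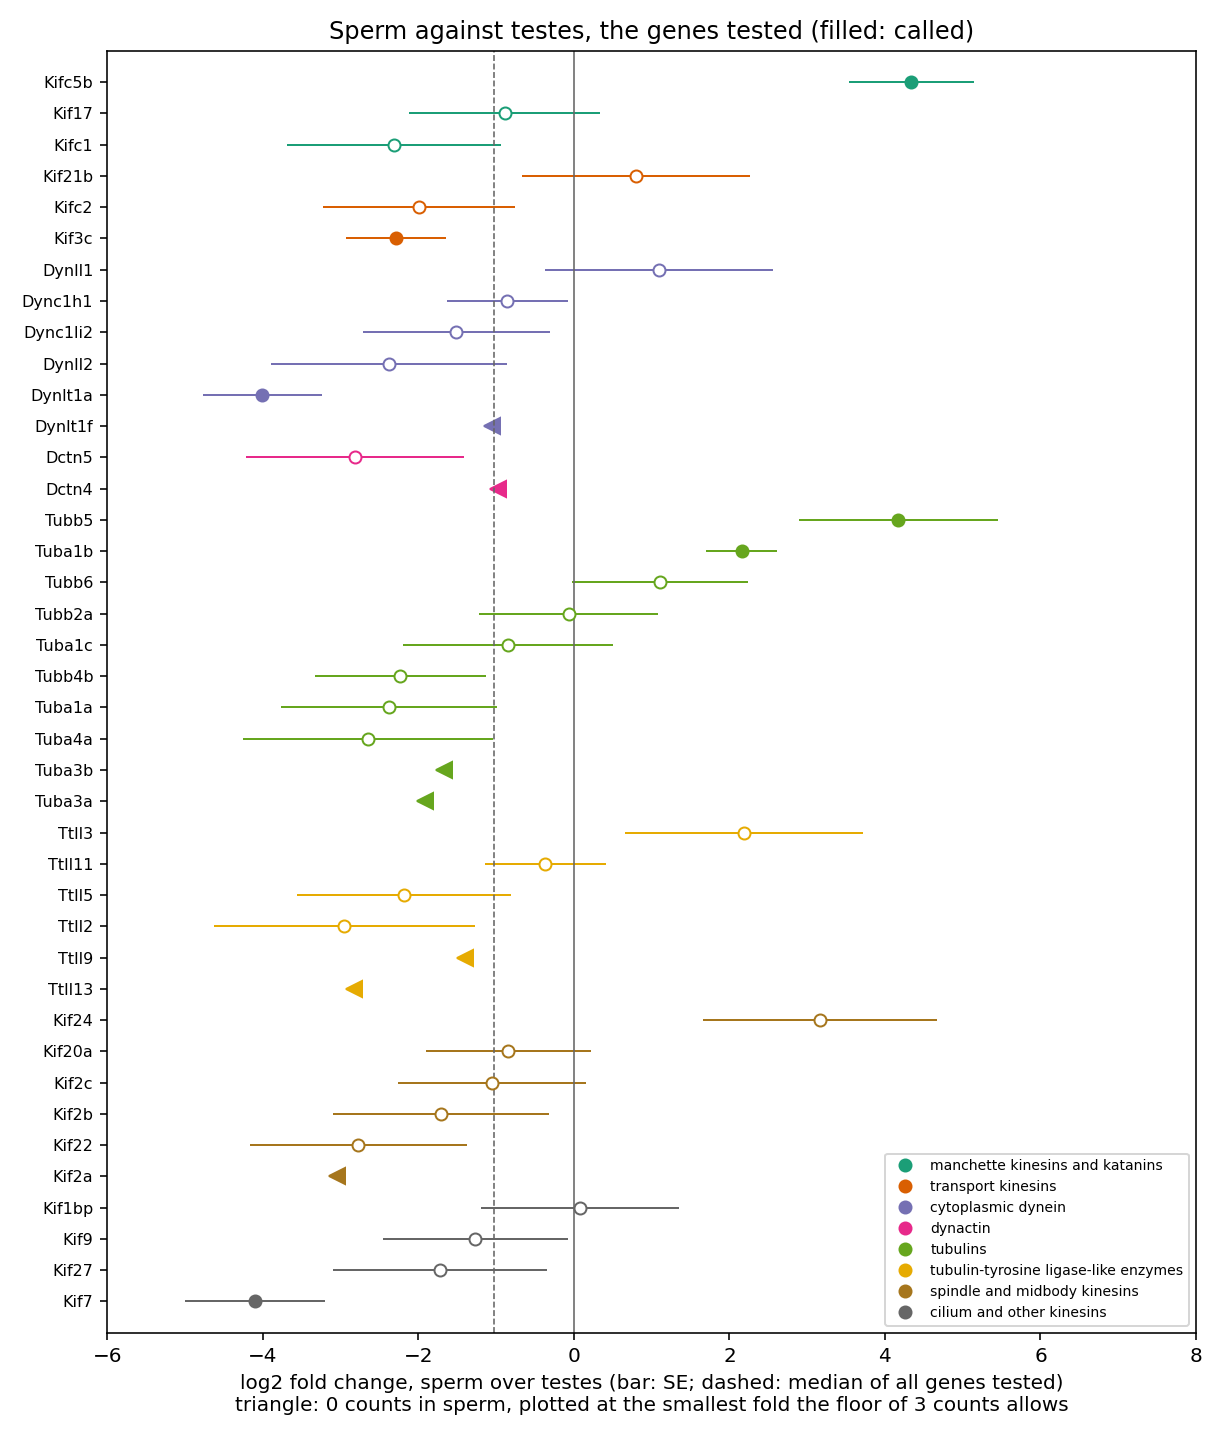
Log2 fold change of sperm over testes (x axis) with SE bars from edgeR for the 40 members tested (y axis), coloured by group, filled where called, with triangles for 7 genes at 0 counts in sperm placed at the smallest fold that the floor of 3 counts allows. Members called in either direction are Kifc5b, Tubb5 and Tuba1b to the right and Kif3c, Dynlt1a, Kif7 and the 7 triangles to the left, and the dashed line is the median of all genes tested (-1.03).

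The other kinesins held the called genes Kif7 and Kif2a. Kif7, a regulator of Hedgehog signalling at the tip of the primary cilium, is on chromosome 7 (79698098 to 79715772). It was at 142, 120, 0 and 0 CPM across sperm replicates 1 to 4, against 741 and 1018 in testes. No sperm sample overlapped the testes, and the log2 fold change was -4.11 (SE 0.90, adjusted p = 1.70e-04, edgeR). The call was lost without testes replicate 2. Without sperm replicate 2, which held all 12 counts of the compared sperm samples, replicates 3 and 4 are at 0 and the gene was still called (adjusted p = 0.0123). Kif2a, a depolymerase of microtubule ends, had 57.7 and 27.0 testes counts but none in sperm, at least 8.29-fold lower (adjusted p = 0.0240). Its gene shares 2330 bases with Dimt1.

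Several kinesins of division had counts in sperm without a call. Kif20a, a motor of the midbody, overlapped as a gene sum at 330, 150, 298 and 36.8 CPM in sperm against 242 and 321 in testes. Its sperm counts (14, 15, 10 and 2) were all assigned to a RefSeq transcript at 0 in both testes. Its testes counts were all on other transcripts, at 0 in every sperm sample. Assignment to a transcript could also switch within a tissue. The 8 counts of Kif17 in testes replicate 1 and the 17 in replicate 2 were on different transcripts. A difference in Kif20a transcripts between the tissues was not tested. Kif2b, a depolymerase, had 4 counts in sperm replicate 2 alone and 16 and 23 in testes (adjusted p = 0.364). Kif24, a centriolar depolymerase, had 12 and 14 of its 27 sperm counts in replicates 3 and 4 and stood at 37.9 and 6.36 CPM in testes. Its log2 fold change of 3.16 (SE 1.501) missed the threshold (adjusted p = 0.101, edgeR). Kif27, a cilium kinesin, had 0, 1, 0 and 8 counts in sperm and 59 and 53 in testes (adjusted p = 0.358). Kif1bp was at 0 in sperm replicates 1 and 3 and had 4 and 19 counts in replicates 2 and 4, with 37 and 42 in testes (adjusted p = 0.972).

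The 7 members at 0 in all 4 sperm samples make up most of the 10 lower calls, and among all genes called lower 687 of 963 (71.3%) had 0 in the 3 compared sperm samples. Those of the members rest on 20 to 84.7 counts in the 2 testes samples together. None of the 7 was called without sperm replicate 2, sperm replicate 4 or either testes sample. Of the 13 called genes 8 overlap another annotated gene, 4 of them a protein-coding one. The whole span of Tuba1b (2962 bases) lies within the long non-coding RNA gene Gm41396, Ttll9 shares 1355 bases with Dusp15, and Kif7 shares 51 with Ticrr. Whether the counting used strand is not given in the sources used here, so reads of these overlaps may belong to either gene.

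Of 22 tested genes of proteins that work with these motors, 6 were lower in sperm (27.3%) and 0 higher, both near the background of 20.8% and 6.70% of all genes tested. Of 6 tested partners of dynein and kinesin 2 were lower, namely Hook1, which joins dynein to cargo, and Kifap3, the non-motor subunit of kinesin-2. Both had 0 counts in all sperm samples, with 15.6 and 21.9 counts of Hook1 and 11 and 29 of Kifap3 in testes. Of 6 tested manchette proteins 3 were lower, which were Hook1 again, Meig1 (0 in sperm, 16 and 78 counts in testes) and Iqcg. Iqcg, a protein of the axonemal regulatory complex, had 0, 20, 16 and 16 counts in sperm and 386 and 450 in testes (log2 fold change -2.05, SE 0.65, adjusted p = 0.0220, edgeR). Tbce, a tubulin folding cofactor, was the lower gene among 5 tested for folding, nucleation and end binding, and Tpgs1, a subunit of a polyglutamylase complex, among 7 tested for tail modification outside the ligases.

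**Figure D5:**
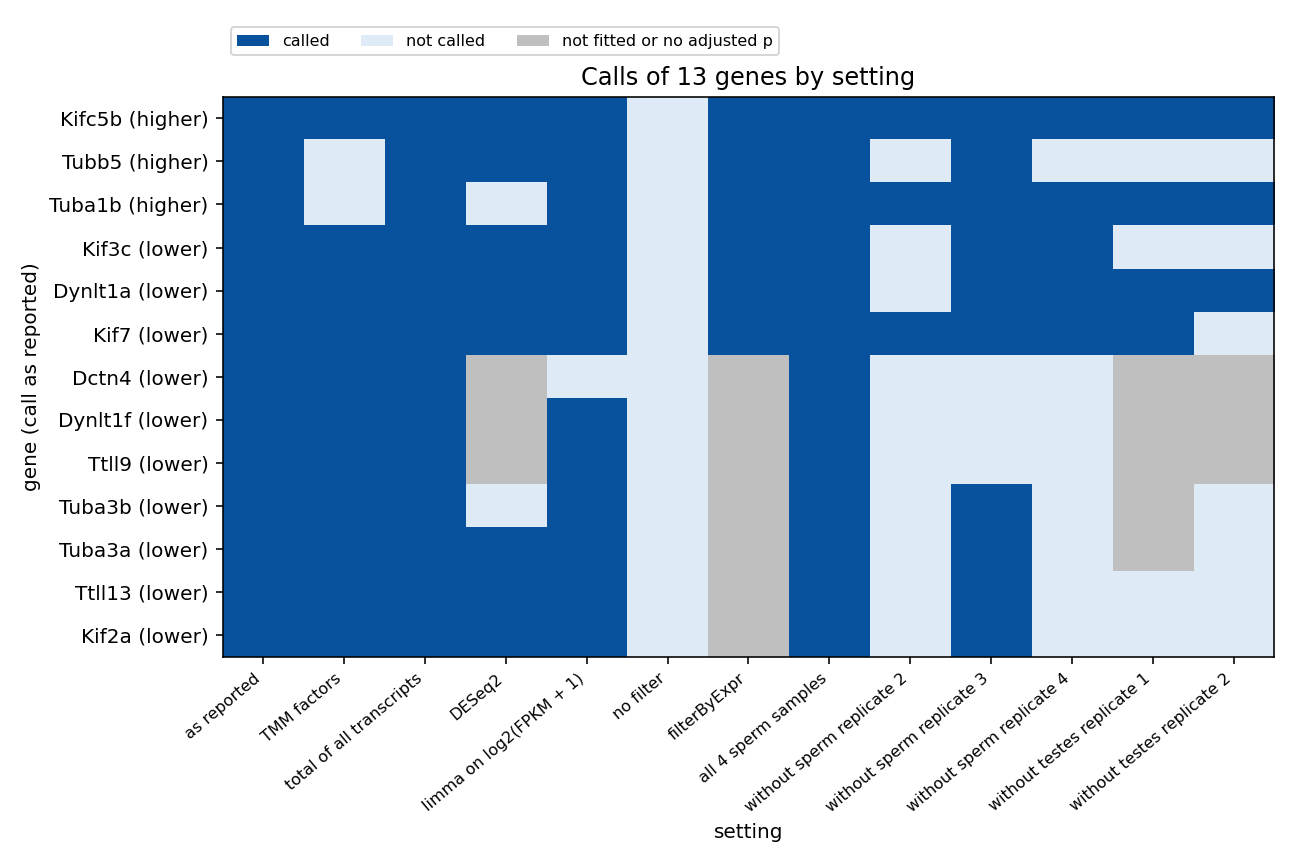
Calls of the 13 genes (y axis) as reported and under 12 other settings (x axis, the replicate block not drawn), dark where the gene was called, pale where it was not and grey where it was not fitted or had no adjusted p. Kifc5b is dark in every column except the fit without a filter, and the 7 genes at 0 in sperm are pale or grey in the fits that leave out sperm replicate 2, sperm replicate 4 or a testes sample.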

How the data were processed

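RNA of 4 sperm and 2 testes samples was sequenced, and samples were grouped by their titles. The authors removed adaptors and poor reads and aligned with SOAPaligner/SOAP2 per the paper, while the submitters' processing notes name HISAT and the build mm10. The counting program is not given in the sources used here. The deposited tables hold, per transcript, an estimated count, often fractional and without scaling for depth, and an FPKM, which is scaled by the authors for transcript length and depth. Transcripts that a table does not list were set to 0.

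Estimated counts of RefSeq mRNA transcripts (9.14% to 12.1% of all counts in a sample) were summed per gene, rounded and tested with edgeR 4.0.16 (glmQLFit, glmQLFTest) in R 4.3.3, with the RefSeq mRNA total as library size and a summed count of at least 20 over 5 samples. Calls needed a Benjamini-Hochberg adjusted p under 0.05 and a fold over 2. Alternatives were TMM factors, the total of all transcripts, DESeq2 1.42.0, limma 3.58.1 on log2(FPKM + 1), no filter, filterByExpr, all 4 sperm samples, the replicate block and leaving out each sample. Scripts were tested on simulated counts. All 93 members matched GRCm38.p6 by accession, 92 with the same symbol. The tables gave no batch, and Tubd1 was not analysed here. Near-identical copies were summed as an alternative added after seeing the data, as were group sums without their leading gene.

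Members and lists were chosen with earlier results of these data known. Named were called genes, the 3 members of each group with the highest mean FPKM, the 5 highest in sperm, and a fixed list of subunits, of which 1 is not reported here. Other genes that are named with values were picked after these were seen.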

Additional observations from a re-analysis of the deposited data

Results flagged for a closer look

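The summed level of the 6 dynactin genes stood apart in 1 of 4 sperm samples, at 99.973 CPM in replicate 2 and 0 in the other 3. Sperm replicate 2 was the deepest sperm library, and its sum rests on 10 counts. In all, 23 groups of 4 sperm samples were examined. A chance rate of about 1 in 20 for this flag assumes normally distributed values and does not hold for counts this sparse.

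Sperm replicate 1 was outside the comparison. Its levels of the 3 genes called higher in sperm were 1108.752 CPM for Kifc5b, 4555.793 for Tuba1b and 471.81 for Tubb5, each above both testes samples.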

How the results depend on the processing

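The 10 lower calls numbered 0 without a filter, 3 with filterByExpr and 2 with the replicate block. They ran from 1 to 8 when a sample was left out, with 1 without sperm replicate 2, 8 without sperm replicate 3, 3 without sperm replicate 4, 2 without testes replicate 1 and 1 without testes replicate 2. The 3 higher calls numbered 1 with TMM factors and 0 without a filter. In that fit 4 members were higher and 12 lower at an unadjusted p under 0.05 by edgeR, and over all genes the calls fell to 15 higher and 4 lower. Summing near-identical copies gave 3 higher and 8 lower calls, and DESeq2 gave 2 and 8. Over all genes, 310 higher and 963 lower calls became 117 and 927 with TMM, 187 and 903 with DESeq2, 264 and 295 with filterByExpr and 179 and 122 with the block. The median log2 fold change of all genes moved by -0.45 with TMM, -0.24 with the total of all transcripts and -1.03 with DESeq2.

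The log2 ratio of the transport sum was -1.45 with all 4 sperm samples, -2.02 by FPKM and -1.96 with the total of all transcripts. For the tubulin sum it was 1.10 by FPKM and 1.11 with that total, and 1.17 to 1.59 when a sample was left out. Both sums higher in sperm reversed without their leading gene, to -2.17 for manchette without Kifc5b and -0.37 for tubulins without Tuba1b. The cause of the other changes was not tested. With filterByExpr or a left-out sample, fewer genes or samples entered the fit. Without a filter more genes did, 14387 against 4628. Among the named genes, 328 values kept their direction and side of the threshold, 58 lost a call, 3 gained one and 17 without a call moved.

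Replicate numbers were shared between the groups, but the deviations of same-numbered samples did not go together (r = -0.012 and -0.0497 over 4704 genes), so that the numbers do not establish a pairing. The block rests on replicates 1 and 2 and draws in sperm replicate 1, and gave 3 higher members and 2 lower ones, Kif3c and Dynlt1a, whereas Kif7 was not called (adjusted p = 0.0874). Depth limits the rest, since 53 members were not tested.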
